A study of Mus musculus with 12 samples.

Results

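The genes described here were 10 amino acid transporters of the cell surface, Slc3a2, Slc7a1, Slc7a3, Slc7a5, Slc7a11, Slc1a4, Slc1a5, Slc38a1, Slc38a2 and Slc6a9, out of 17995 genes listed by RNA-seq in 2 mouse cell lines. They were selected on their values in all 12 libraries, so their own levels and changes are given as descriptions, with no p-value. C18-4 is a line derived from mouse spermatogonial stem cells and TM4 a line derived from mouse Sertoli cells. Each line received either a control shRNA (shNC) or shRNAs against the muscarinic acetylcholine receptor M5 gene Chrm5 (shM5), with 3 libraries for each of the 4 groups. The shRNAs were delivered with lentiviral constructs, 3 shRNAs were mixed for the target gene, and stable transfected cells were used, so that shNC cells carried a construct as well. The labels gave the same strain, written IRC, for all samples and gave no age. The 2 lines were grown in different media according to the methods (DMEM/F12 with serum and added L-glutamine for C18-4, DMEM with serum for TM4), so line and medium cannot be told apart. Nothing in the labels said that the replicates came from separate cultures, and the p-values given for other genes measure only the spread between these libraries.

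Amino acids cross the plasma membrane through carriers that either take them up with sodium or exchange them for another amino acid. The heteromeric exchangers pair a light chain, which moves the amino acid, with the heavy chain SLC3A2 (CD98), which carries the pair to the cell surface. Uptake through these carriers feeds protein synthesis, glutathione synthesis and the sensing of amino acids by mTORC1. Many of their genes are known targets of ATF4, a transcription factor whose translation rises when the initiation factor eIF2alpha is phosphorylated, as in amino acid shortage or endoplasmic reticulum stress. In the testis, Sertoli cells supply nutrients to the germ cells that lie behind the blood-testis barrier.

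Values were RPKM, reads scaled to the length of the gene and the size of the library, which allow levels to be set side by side between genes. RPKM summed to between 506413 and 540231 per library. The number of reads per library was not given, but the smallest steps between low values showed that 1 read was worth 0.962 to 1.035 times what it was worth in shNC replicate 1 of the same line, so depth was close to equal within a line. The targeted gene Chrm5 was listed at 0.01 RPKM in C18-4 shNC 2 and TM4 shNC 1 and at 0 in the other libraries, so the knockdown could not be checked in these files. Some libraries stood apart from their groups. For the library labelled TM4 shNC 3, the root mean square difference over all tested genes (log2 scale) was 0.202 to 0.257 to the 3 TM4 shM5 libraries and 0.640 and 0.642 to TM4 shNC 1 and 2. In C18-4, replicate 3 differed from replicates 1 and 2 of its own group by 0.376 to 0.438, against 0.322 between the replicate 3 libraries of shNC and shM5. The cell type labels had limited backing from markers. In C18-4 the germ cell genes Ddx4 (0 to 0.05 RPKM) and Kit (0 in all libraries) were near absent while Uchl1 (76.8 to 140 RPKM), also a spermatogonial marker, was present. In TM4 the Sertoli cell factor Sox9 was at 1.11 to 1.74 RPKM and Wt1 at 0.06 to 0.15 RPKM, below the 53.9 to 72.3 RPKM of Wt1 in C18-4.

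Slc3a2 (Entrez 17254), the common heavy chain, was the most abundant of the 10 mRNAs in C18-4. It was at 138.74, 142.38 and 229.03 RPKM in the shNC libraries and at 127.18, 125.37 and 223.06 RPKM in the shM5 libraries of C18-4. In TM4 it was at 400.06, 378.19 and 129.55 RPKM in shNC and at 113.03, 117.23 and 113.01 RPKM in shM5. The high libraries were replicate 3 of both C18-4 groups and replicates 1 and 2 of TM4 shNC, while TM4 shNC 3 stood just above the shM5 libraries.

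Slc7a5 (Entrez 20539) encodes LAT1, the light chain that brings in leucine and other large neutral amino acids in exchange for glutamine. Its C18-4 levels were 62.76, 65.55 and 103.41 RPKM in shNC and 68.67, 68.44 and 103.38 RPKM in shM5. Its TM4 levels were 323.71, 319.95 and 89.4 RPKM in shNC and 80.58, 80.81 and 84.39 RPKM in shM5. The same 4 libraries were high as for its heavy chain, and in C18-4 the shNC and shM5 values overlapped.

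Slc7a11 (Entrez 26570), which encodes the cystine and glutamate exchanger xCT that supplies cysteine for glutathione, had the widest range of the 10 genes in TM4. It was at 25.51, 26.28 and 3.55 RPKM in TM4 shNC and at 2.78, 2.52 and 2.92 RPKM in TM4 shM5. In C18-4 it was at 2.72, 3.28 and 6.79 RPKM in shNC and at 3.01, 2.79 and 6.52 RPKM in shM5. TM4 shNC 1 and 2 were thus 7.19 and 7.40 times TM4 shNC 3, and the highest TM4 library was 10.4 times the lowest.

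In TM4 the light chain mRNAs followed the heavy chain in sum, and in both lines their makeup differed between libraries. Over the 5 light chains of Slc3a2 that the file listed (Slc7a5, Slc7a6, Slc7a7, Slc7a8 and Slc7a11), the ratio of Slc3a2 to the summed light chains was 0.927 to 1.04 in the 6 TM4 libraries, although the sum itself ran from 120 to 385 RPKM. In C18-4 the ratio was 1.42, 1.39 and 1.64 in shNC and 1.15, 1.14 and 1.54 in shM5. Within each replicate number of C18-4 the shM5 ratio was the lower of the pair, and it was highest in replicate 3 of both groups. Slc7a6, the light chain y+LAT2 that exchanges cationic for neutral amino acids and is no member, stayed between 32.14 and 35.46 RPKM in all TM4 libraries. Its share of the light chain mRNA was therefore 8.73% and 8.61% in TM4 shNC 1 and 2 and 25.4% to 29.4% in the other 4, while that of Slc7a5 was 84.2% and 84.0% against 66.8% to 70.6%.

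**Figure D1:**
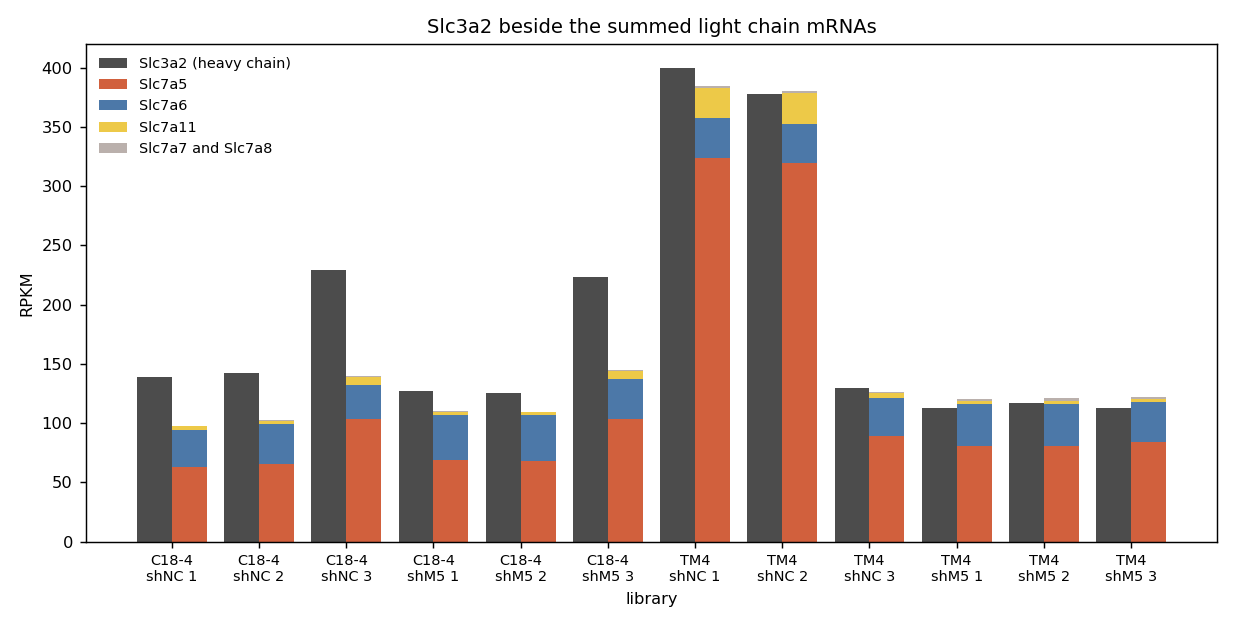
Slc3a2 (dark bars) beside the stacked light chain mRNAs (coloured bars) in each of the 12 libraries, in RPKM on a linear axis. In TM4 shNC 1 and 2 both bars reach 378 to 400 and 381 to 385 RPKM with the Slc7a5 part tallest, while in every C18-4 library the Slc3a2 bar is the taller of the pair.

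Slc7a1 (Entrez 11987) and Slc7a3 (Entrez 11989) encode CAT1 and CAT3, carriers of arginine and lysine that need no heavy chain. Slc7a1 was at 40.54, 43.03 and 69.81 RPKM in C18-4 shNC and at 48.23, 49.22 and 81.92 RPKM in C18-4 shM5. It was at 95.83, 93.2 and 25.8 RPKM in TM4 shNC and at 24.23, 25.33 and 25.29 RPKM in TM4 shM5. Its C18-4 groups overlapped, but within each replicate number shM5 was the higher, by 1.19, 1.14 and 1.17 times.

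Slc7a3 was the only one of the 10 genes that was nearly absent from a line. In C18-4 it was listed at 0.08, 0.06 and 0.06 RPKM in shNC and at 0.18, 0.14 and 0.18 RPKM in shM5, with a resolution of 0.01 RPKM. In TM4 it was at 47.67, 49.09 and 10.81 RPKM in shNC and at 7.58, 6.95 and 8.16 RPKM in shM5. Its sum over the C18-4 libraries was 0.537% of that over the TM4 libraries, and it made up 33.2% and 34.5% of the summed Slc7a1 and Slc7a3 mRNA in TM4 shNC 1 and 2, 29.5% in TM4 shNC 3 and 21.5% to 24.4% in TM4 shM5.

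Slc1a4 (Entrez 55963) and Slc1a5 (Entrez 20514) encode the exchangers ASCT1 and ASCT2, which carry alanine, serine, cysteine and threonine, and in the case of ASCT2 also glutamine. Slc1a4 was at 14.18, 16.81 and 35.51 RPKM in C18-4 shNC, at 16.78, 17.78 and 38.66 RPKM in C18-4 shM5, at 45.91, 46.12 and 10.62 RPKM in TM4 shNC and at 10.01, 10.42 and 9.67 RPKM in TM4 shM5. Slc1a5 was at 46.08, 46.2 and 64.55 RPKM in C18-4 shNC, at 49.48, 48.77 and 66.34 RPKM in C18-4 shM5, at 85.06, 86.82 and 43.45 RPKM in TM4 shNC and at 38.79, 39.53 and 41.67 RPKM in TM4 shM5. Both genes were high in the same 4 libraries, with a wider range for Slc1a4 (2.73 times in C18-4 and 4.77 times in TM4 between the lowest and the highest library) than for Slc1a5 (1.44 and 2.24 times).

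Slc38a1 (Entrez 105727) and Slc38a2 (Entrez 67760) encode SNAT1 and SNAT2, which take up glutamine, alanine and other small neutral amino acids with sodium. Slc38a1 was at 45.11, 46.68 and 58.7 RPKM in C18-4 shNC, at 50.47, 51.31 and 60.53 RPKM in C18-4 shM5, at 64.07, 64.68 and 40.55 RPKM in TM4 shNC and at 36.26, 37.36 and 41.11 RPKM in TM4 shM5. Slc38a2 was at 100.41, 105.57 and 117.46 RPKM in C18-4 shNC, at 96.31, 98.22 and 128.43 RPKM in C18-4 shM5, at 161.7, 160.84 and 140.05 RPKM in TM4 shNC and at 141.64, 141.51 and 144.2 RPKM in TM4 shM5. Slc38a2 varied least of the 10 genes in both lines (1.33 times in C18-4 and 1.15 times in TM4). SNAT2 is known as a carrier that rises when amino acids are short. For both genes TM4 shNC 3 lay below the highest shM5 library.

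Slc6a9 (Entrez 14664) encodes the glycine transporter GlyT1, which takes up glycine with sodium and chloride. It was at 5.19, 6.26 and 16.19 RPKM in C18-4 shNC and at 5.54, 4.79 and 14.39 RPKM in C18-4 shM5. In TM4 it was at 46.7, 45.58 and 8.73 RPKM in shNC and at 8.94, 7.27 and 7.1 RPKM in shM5. It had the widest range of the 10 genes in C18-4 (3.38 times) and TM4 shNC 3 lay within the range of the shM5 libraries.

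**Figure D2:**
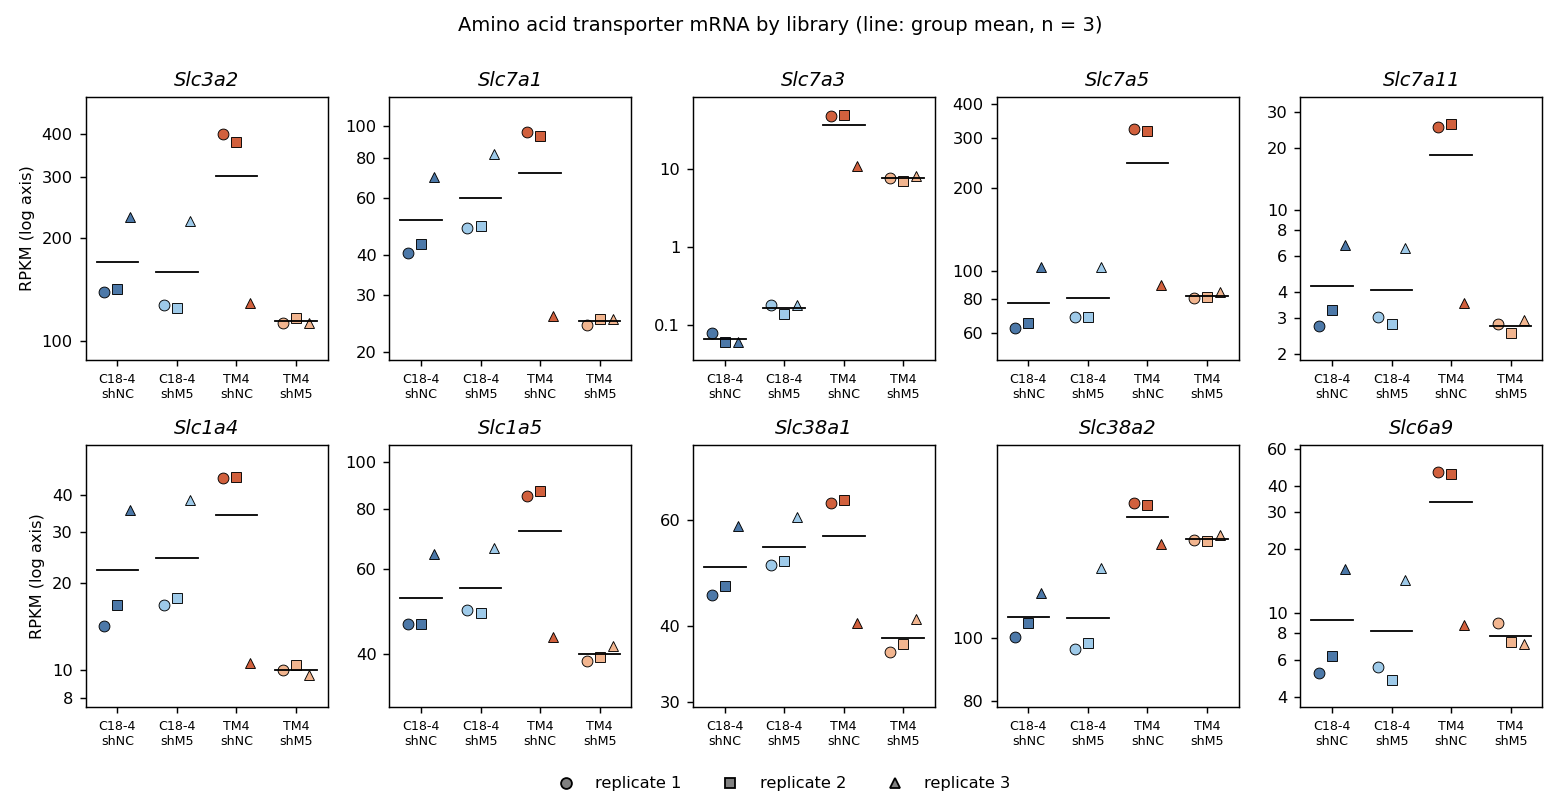
RPKM of each transporter on a log axis in the 4 groups, with 1 symbol per library (circle, square and triangle for replicates 1, 2 and 3) and a line at the mean of the 3 libraries. In TM4 shNC the circle and square lie above the triangle in every panel, and in the C18-4 groups the triangle is the highest symbol in every panel except that of Slc7a3.

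The order of the 10 mRNAs by mean RPKM in C18-4 shNC was Slc3a2 (170 ± 51.1, SD, n = 3), Slc38a2 (108 ± 8.74), Slc7a5 (77.2 ± 22.7), Slc1a5 (52.3 ± 10.6), Slc7a1 (51.1 ± 16.2), Slc38a1 (50.2 ± 7.43), Slc1a4 (22.2 ± 11.6), Slc6a9 (9.21 ± 6.07), Slc7a11 (4.26 ± 2.21) and Slc7a3 (0.0667 ± 0.0115). The library ranges of neighbours in this order overlapped from Slc38a2 down to Slc38a1 and from Slc1a4 down to Slc7a11. In TM4 shM5, where the libraries agreed best, the order was Slc38a2 (142 ± 1.52), Slc3a2 (114 ± 2.43), Slc7a5 (81.9 ± 2.14), Slc1a5 (40.0 ± 1.496), Slc38a1 (38.2 ± 2.54), Slc7a1 (25.0 ± 0.624), Slc1a4 (10.03 ± 0.376), Slc6a9 (7.77 ± 1.02), Slc7a3 (7.56 ± 0.605) and Slc7a11 (2.74 ± 0.203). Here the ranges overlapped only for the neighbours Slc1a5 and Slc38a1 and for Slc6a9 and Slc7a3. The 10 genes together held 69.5% to 79.9% of the summed RPKM of 52 amino acid transporter genes in C18-4 libraries, and 76.7% to 90.2% in TM4 libraries, with 90.1% and 90.2% in TM4 shNC 1 and 2.

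The spread between the libraries of a line was shared by the genes. In C18-4, replicate 3 was the highest library of its group in both groups for 9 of the 10 genes, with Slc7a3 as the exception, and for 44.5% of all genes tested. In TM4, shNC 1 and 2 both exceeded the other 4 libraries for 10 of 10 genes and for 35.4% of all genes tested. Across the 9 genes that passed the filter on low values in both lines (0.5 RPKM on average), the ratio of the highest to the lowest library ordered the genes alike in the 2 lines, with a Spearman rank correlation of 0.90 over 9 genes that came from the same libraries. Slc38a2, Slc38a1 and Slc1a5 were the lowest in both lines and Slc7a11, Slc1a4 and Slc6a9 the highest.

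**Figure D3:**
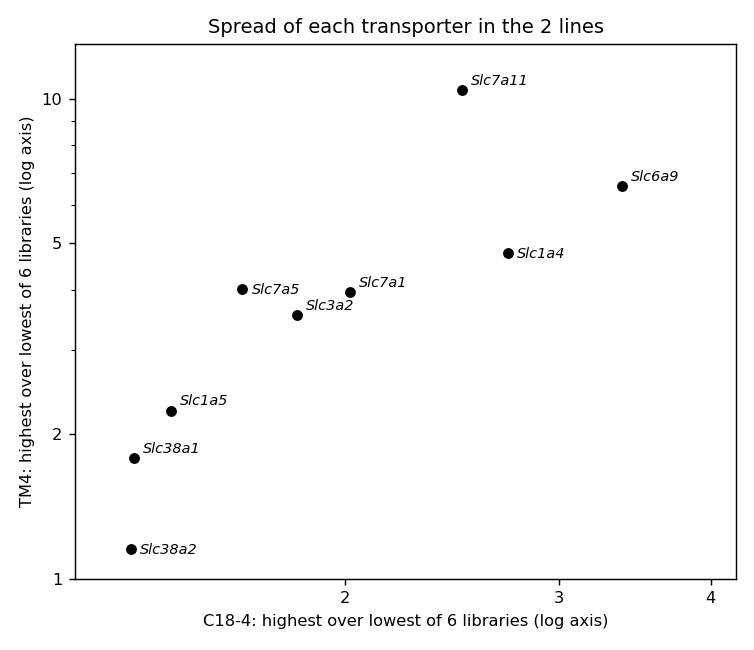
Highest over lowest RPKM among the 6 libraries of C18-4 (x axis) and of TM4 (y axis) for the 9 transporters tested in both lines, on log axes. Points run from Slc38a2 at 1.33 and 1.15 to Slc6a9 at 3.38 and 6.58, with Slc7a11 the highest in TM4 at 10.4.

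Promoter sequence was looked at because the genes varied together and ATF4 binds a known element. RefSeq windows of 300 bases (250 before and 50 after the start, mouse build GRCm38.p6) were at hand for 6 of the 10 genes, Slc3a2, Slc7a1, Slc7a11, Slc1a4, Slc38a2 and Slc6a9. The core of the C/EBP-ATF response element, searched as TGATGNAA on both strands, was in the windows of 2 of the 6, Slc7a11 and Slc1a4. It was in 3.97% of 32851 windows of the table and in windows of 3.44% of the 14057 genes of the file that had a window. Among the ATF4 pathway genes below that are no transporters, 8 of 25 with a window held it. The stretches that hold the matches are shown 5′ to 3′ on the strand of the gene, with the matches in capitals (TTGCATCA is a match on the other strand). The Slc7a11 stretch is chr3:50443651-50443680 (minus strand), with matches 66 and 47 bases before the start, and the Slc1a4 stretch is chr11:20332699-20332728 (minus strand), with the match 4 bases before the start. Those of the ATF4 pathway genes Asns (chr6:7693214-7693243, minus strand) and Chac1 (chr2:119351038-119351067, plus strand) are given for comparison.
Slc7a11: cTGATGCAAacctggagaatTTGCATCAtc
Slc1a4: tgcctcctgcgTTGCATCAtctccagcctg
Asns: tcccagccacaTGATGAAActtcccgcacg
Chac1: cttccctgccgTTGCATCActcctgccagg

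The Slc7a11 stretch thus carried the core on each strand. Of the 9 genes tested in both lines, Slc7a11 and Slc1a4 were among the 3 with the widest range in C18-4, the other being Slc6a9, whose windows held no match. Slc7a5, Slc1a5 and Slc38a1 had no window, and a link between match and range was not tested. The core of the antioxidant response element, the site of NRF2, searched as TGACNNNGC on both strands, was in windows of Slc6a9, Slc7a1 and Slc38a2 (3 of 6 genes), in 12.4% of all windows and in windows of 15.9% of genes. A match describes the letters only and does not show binding.

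The comparison of shM5 with shNC in TM4 asked how M5 shRNA changed this line. All 10 transporters had lower mean levels in shM5, with log2 fold changes on the log2(RPKM + 0.1) scale between -2.25 and -0.11 and a median of -1.33, against a median of 0.04 over all 11016 genes tested. The changes were Slc7a11 -2.25 (SE 0.75), Slc7a3 -1.95 (SE 0.57), Slc6a9 -1.77 (SE 0.64), Slc1a4 -1.49 (SE 0.56), Slc7a5 -1.36 (SE 0.49), Slc7a1 -1.29 (SE 0.49), Slc3a2 -1.24 (SE 0.42), Slc1a5 -0.77 (SE 0.27), Slc38a1 -0.53 (SE 0.19) and Slc38a2 -0.11 (SE 0.08). All shM5 libraries were below all shNC libraries for 7 of the 10 genes, against 11.1% of all genes tested, and the exceptions were Slc38a1, Slc38a2 and Slc6a9. TM4 shNC 3 was between 0.971 times (Slc38a2) and 1.32 times (Slc7a3) the highest shM5 library.

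With limma and Benjamini-Hochberg adjustment over all genes, 0% of all genes tested were called at an adjusted p below 0.05. The smallest adjusted p was 0.192, and 2866 of 11016 genes had an unadjusted p below 0.05. When TM4 shNC 3 was left out, the fit had 2 shNC and 3 shM5 libraries, and 30.9% of all genes were called lower and 36.5% higher. Single libraries were left out in turn as planned, but this fit was picked for detail after the data were seen. Its p-values, here and below, depend on that choice and are descriptions of these libraries. The log2 fold changes of the transporters then ran from -3.20 (Slc7a11, SE 0.08) to -0.18 (Slc38a2, SE 0.04), with a median of -1.95 against 0.04 over all genes tested. Without that library 8 of the 10 had a log2 fold change of -1 or lower, as had 4.75% of all genes, and the others were Slc38a1 and Slc38a2. The number of genes called in TM4 thus rested on whether 1 control library was included.

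In TM4, the summed levels of 3 of the 5 marker lists moved with the same libraries, but a sum follows its most abundant genes. Over 7 mesenchymal markers, none of which was at 0, the sum was 742 and 724 RPKM in TM4 shNC 1 and 2, 1120 RPKM in TM4 shNC 3 and 1129 to 1344 RPKM in TM4 shM5. Over 15 Sertoli cell markers it was 86.1 and 84.9 RPKM in TM4 shNC 1 and 2, 48.1 RPKM in TM4 shNC 3 and 45.1 to 47.5 RPKM in TM4 shM5, with Gata1, Trf and Nr5a1 at 0 in both groups. The largest part of this sum was Kitl, at 49.5 and 49.41 RPKM, 22.73 RPKM and 18.42 to 21.99 RPKM in the same order. Over 16 spermatogonial markers the sum was 159 and 162 RPKM, 243 RPKM and 245 to 273 RPKM in the same order, with Kit, Zbtb16 and Uchl1 among those at 0 in both groups. Most of that sum was Cd9, at 131.73 and 134.33 RPKM, 207.79 RPKM and 209.27 to 242.32 RPKM. The Sertoli cell and spermatogonial sums thus do not describe their lists as a whole. The sums of Leydig cell and leukocyte markers were at most 1.66 RPKM in TM4. In C18-4 the mesenchymal sum was 423, 440 and 400 RPKM in shNC and 572, 572 and 456 RPKM in shM5. These sums did not overlap, as was so for 18.9% of all genes tested. Most of the sum was Col1a1, at 308, 327.15 and 287.22 RPKM in shNC and 385.69, 380.86 and 300.81 RPKM in shM5, which overlapped. Col3a1 and Acta2 were higher in every shM5 library, and Prrx1 was lower (1.04 to 1.11 RPKM against 1.98 to 2.99 RPKM). Col1a2, Pdgfrb and Twist1 overlapped, so this sum does not describe its list as a whole either. The part of these markers in the results was not tested.

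**Figure D4:**
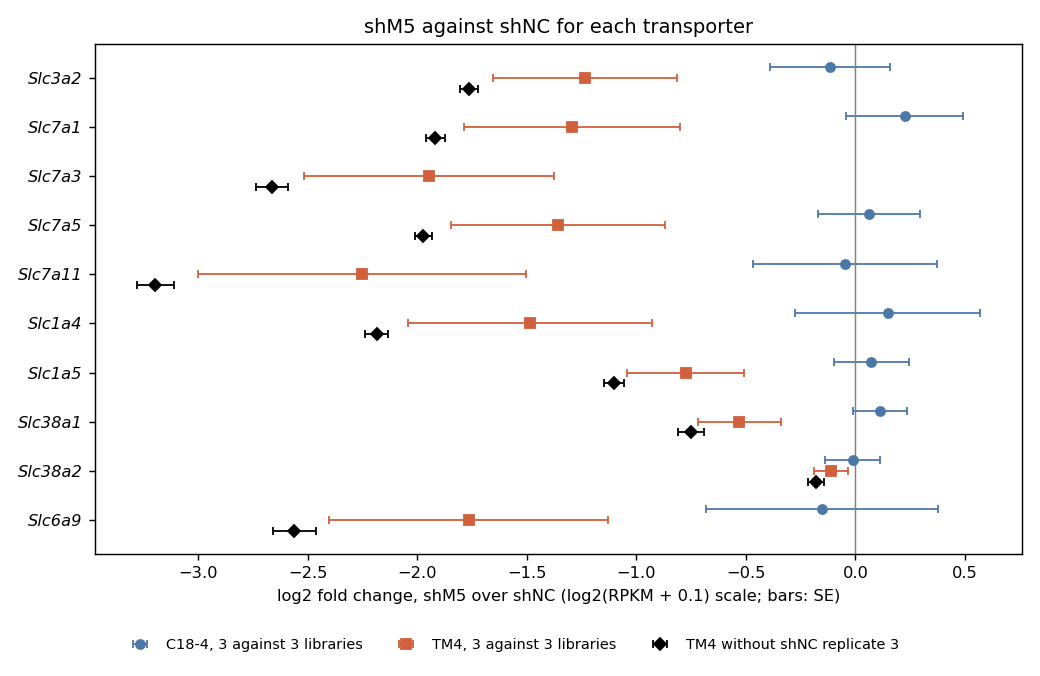
Log2 fold change of shM5 over shNC for each transporter with its standard error, in C18-4 (circles), in TM4 (squares) and in TM4 without shNC 3 (diamonds). The C18-4 points lie between -0.15 and 0.22, each with an error bar that spans 0, and the TM4 points lie between -2.25 and -0.11 with bars that shorten without shNC 3.

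In the corresponding comparison in C18-4, the transporters differed little between shM5 and shNC. Of the 9 genes tested, 5 had higher and 4 lower mean levels in shM5, with log2 fold changes from -0.15 (Slc6a9, SE 0.53) to 0.22 (Slc7a1, SE 0.27) and a median of 0.06, against -0.0024 over all 11611 genes tested. Over all genes, 0.586% were called at an adjusted p below 0.05 in limma (34 higher and 34 lower). Groups did not overlap for 1 of the 10 genes, Slc7a3, which was higher in shM5 at levels of at most 0.18 RPKM and was not tested, and for 18.9% of all genes tested.

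Pairing of the C18-4 libraries by replicate number was taken from correlations in these data, as an alternative. Same-numbered shNC and shM5 libraries deviated together (r = 0.439, 0.409 and 0.631). Replicates 1 and 2 also did so across numbers (0.341 and 0.345), so the pairing rests mainly on replicate 3. With the number as a block 1386 genes passed a limma adjusted p below 0.05, 5.21% of all genes being higher and 6.73% lower. In that fit the median change of the 9 transporters was again 0.06. Standard errors were smaller, for example 0.05 for Slc7a1, 0.06 for Slc1a4 and 0.05 for Slc1a5. The transporters were not tested in it, since they and the block were both taken from these data. Without replicate 3 of both groups, a setting chosen after the data were seen, the median change of the 9 transporters was 0.09.

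The other genes of amino acid transport and of the pathways around it were taken as 5 lists. These lists were chosen with earlier results of these data known, so their counts are descriptions of these libraries. Of 42 other amino acid transporters in the file, 18 passed the filter in C18-4 and 13 in TM4. Their median log2 fold change was -0.04 in C18-4 and 0.08 in TM4, and 0 were called in either line (limma, adjusted p below 0.05; 5 genes in each line had an unadjusted p below 0.05). The most abundant, Slc38a10, Slc6a6 (the taurine transporter) and Slc7a6, had log2 fold changes of 0.27 (SE 0.10), 0.24 (SE 0.24) and 0.23 (SE 0.09) in C18-4 and of 0.68 (SE 0.23), 0.13 (SE 0.07) and 0.08 (SE 0.07) in TM4. In TM4 without shNC 3, 4 of 14 were called higher (Slc6a6, Slc36a4, Slc38a6 and Slc38a10), against 36.5% of all genes, and 4 lower (Slc1a3, Slc16a10, Slc38a7 and Ctns, the lysosomal cystine exporter), against 30.9% of all genes. Slc38a7, a lysosomal glutamine transporter, fell by 2.08 on the log2 scale (adjusted p = 1.52e-06) and Slc38a10 rose by 0.95 (adjusted p = 2.94e-06). With the replicate block in C18-4, 3 of 18 were called higher, Slc6a6, Slc38a10 and Slc7a6 (0.23, SE 0.05, adjusted p = 0.0259), and 1 lower, Slc7a2, against the 5.21% and 6.73% of all genes.

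Of the other solute carriers, 260 Slc genes outside amino acid transport were in the file. Their median log2 fold change was -0.0088 over 146 tested in C18-4 and 0.05 over 133 tested in TM4, and without TM4 shNC 3 it was 0.04 over 130 genes, of which 4 were lower and 4 higher at the threshold of the study.

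Genes of the ATF4 pathway that are no transporters (28 genes, all tested) followed the transporters. Their median log2 fold change was -0.11 in C18-4 and -1.09 in TM4, and 0 were called in either line in limma, with 1 gene in C18-4 and 24 genes in TM4 at an unadjusted p below 0.05. With TM4 shNC 3 left out, 28 of 28 were called lower (median -1.61), against the 30.9% of all genes. The 4 with the smallest adjusted p were Cth, an enzyme of cysteine synthesis (-3.47, adjusted p = 7.26e-08), Trib3, a pseudokinase that binds ATF4 (-3.10, adjusted p = 2.03e-07), Aldh18a1, which begins proline synthesis (-1.65, adjusted p = 2.19e-07), and the stress gene Nupr1 (-2.88, adjusted p = 2.19e-07). Cth was at 159.77, 161.94 and 19.01 RPKM in TM4 shNC and at 13.65, 15.04 and 14.66 RPKM in TM4 shM5, high in the same libraries as the transporters. With the replicate block in C18-4, 3 of 28 were called higher (Mthfd2, Gpt2 and Gdf15) and 6 lower, against 5.21% and 6.73% of all genes.

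Atf4 mRNA itself was at 295.37, 293.53 and 363.03 RPKM in C18-4 shNC, at 283.27, 279.87 and 348.94 RPKM in C18-4 shM5, at 445.75, 432.18 and 296.87 RPKM in TM4 shNC and at 267.43, 275.26 and 275.35 RPKM in TM4 shM5. It was high in the same 4 libraries, with a smaller range than most of the transporters. Its log2 fold change was -0.06 (SE 0.12, limma adjusted p = 0.911) in C18-4 and -0.50 (SE 0.16, adjusted p = 0.192) in TM4. Those of Ddit3, the stress factor CHOP, were 0.13 (SE 0.29, adjusted p = 0.924) and -1.39 (SE 0.53, adjusted p = 0.192), and those of Asns, asparagine synthetase, were -0.09 (SE 0.25, adjusted p = 0.945) and -1.06 (SE 0.38, adjusted p = 0.192). The TM4 changes without shNC 3 were -0.69 (Atf4, adjusted p = 4.33e-06), -2.05 (Ddit3, adjusted p = 1.32e-06) and -1.54 (Asns, adjusted p = 3.06e-07).

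The 10 genes of the eIF2alpha kinases and phosphatases had a median log2 fold change of 0.03 in C18-4 and -0.01 in TM4, with 0 called in limma and 1 and 7 genes at an unadjusted p below 0.05. Without that library, 4 were called higher (Eif2ak1, Eif2ak3, Eif2ak4 and Ppp1ca) and 4 lower (Eif2s1, Impact, Ppp1r15a and Ppp1r15b). Ppp1r15a, which directs a phosphatase to eIF2alpha and is itself induced through ATF4, fell by 2.69 (adjusted p = 2.03e-07), and Eif2ak3, the kinase PERK, rose by 1.08 (adjusted p = 5.32e-05). Genes of amino acid sensing by mTORC1 had a median of 0.0031 over 28 in C18-4 and of -0.04 over 26 in TM4, with 0 called and 1 and 8 genes at an unadjusted p below 0.05. In the fit without TM4 shNC 3, 9 of 26 were called higher and 12 lower, against 36.5% and 30.9% of all genes, as for each list in that fit, with Rheb, the GTPase that activates mTORC1, at -1.34 (adjusted p = 5.56e-07).

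The NRF2 pathway was mixed in TM4, where 6 of its 13 genes had lower and 7 higher mean levels in shM5. The list had a median of 0.05 in C18-4 and 0.30 in TM4 with 0 called, and 1 and 5 genes at an unadjusted p below 0.05. Without TM4 shNC 3, 7 were called higher and 3 lower (Hmox1, Gclc and Txnrd1), the higher ones led by Gsr, glutathione reductase (1.21, adjusted p = 4.26e-06), and thioredoxin Txn1 (0.60, adjusted p = 9.57e-06). Nfe2l2, which encodes NRF2, was at 48.98 to 53.24 RPKM in C18-4 and 56.99 to 62.8 RPKM in TM4, with log2 fold changes of -0.09 (SE 0.06, limma adjusted p = 0.651) and -0.04 (SE 0.07, adjusted p = 0.692). With the replicate block in C18-4, 1 of 10 eIF2alpha genes was called higher (Impact), 1 of 28 mTORC1 genes lower (Seh1l) and 2 of 13 NRF2 genes higher (Nqo1 and Prdx1). Over all genes in that fit, 5.21% were called higher and 6.73% lower.

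Relative to the median of each gene in its line, the transporters' median was 1.90 and 1.87 on the log2 scale in TM4 shNC 1 and 2 and -0.12 to 0.02 in the other 4 TM4 libraries. In C18-4 it was 0.59 and 0.67 in replicate 3 of shNC and shM5 and -0.17 to -0.01 in the others. The ATF4 pathway gave 1.498 and 1.483 in TM4 shNC 1 and 2 and 0.77 and 0.56 in the C18-4 replicate 3 libraries. The NRF2 genes gave -0.40 and -0.37 and, in C18-4, -0.40 and -0.18, and in TM4 this is a median over genes with changes in both directions.

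**Figure D5:**
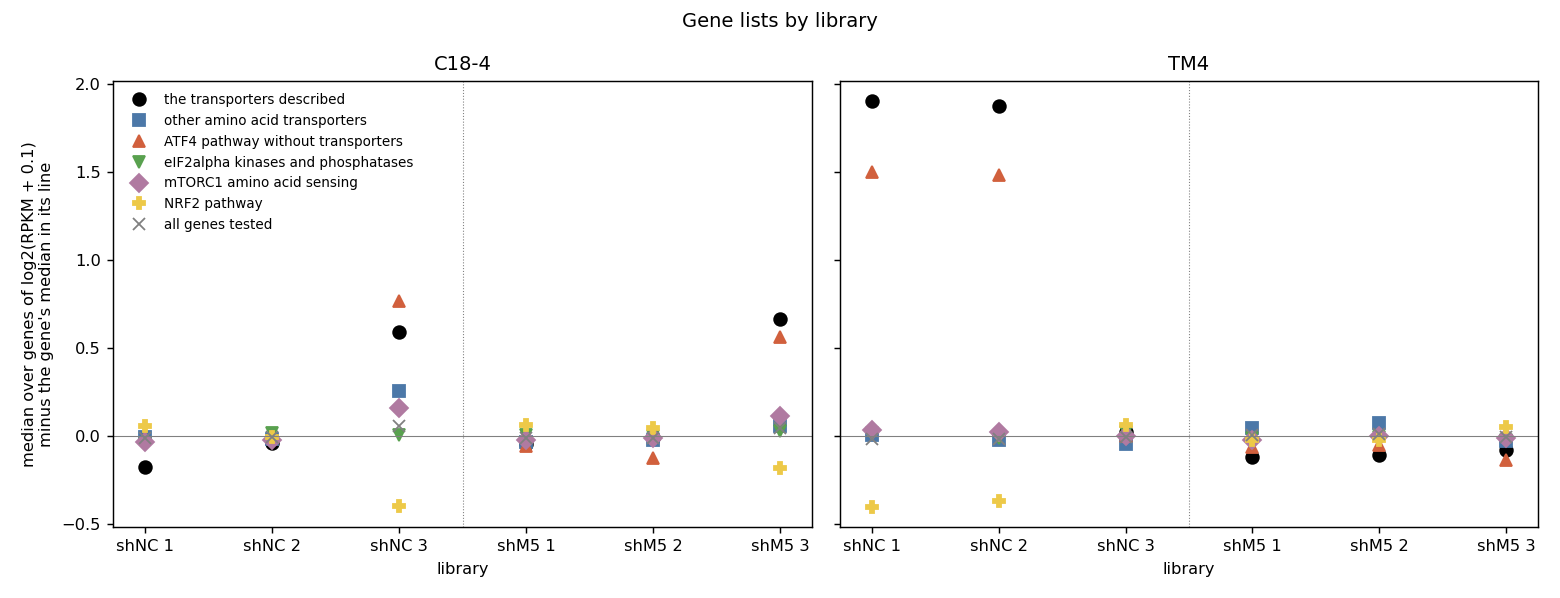
Median over the genes of each list of log2(RPKM + 0.1) minus the gene's median over the 6 libraries of its line, for each library of C18-4 (left) and TM4 (right). The transporters and the ATF4 pathway stand at 1.48 to 1.90 in TM4 shNC 1 and 2 and at 0.56 to 0.77 in replicate 3 of both C18-4 groups, while all genes tested stay near 0.

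The genes whose pattern was most like the mean profile of the transporters were sought among genes whose mean reached 5 RPKM. Over all 12 libraries, centred within each line, the 5 nearest of 7781 genes by Pearson r were Arhgef2 (0.998), Aldh3a2 (0.997), Aldh18a1 (0.997), Zfp346 (0.997) and Ppp1r15a (0.996), of which Aldh18a1 was in the ATF4 list and Ppp1r15a in that of eIF2alpha. The genes named in every comparison were at 0.994 (Asns), 0.989 (Atf4), 0.987 (Ddit3) and 0.454 (Nfe2l2). Their ranks among the 7781 genes are not given here, so these values do not set them apart from other genes. Within TM4 alone Nfe2l2 was at 0.84 and within C18-4 alone at -0.34, while Asns, Atf4 and Ddit3 were at 0.961 to 0.998 in each line. Among the transporters themselves r was 0.976 to 0.995 for 8 genes and 0.782 for Slc38a2, whose TM4 level stayed high in all libraries. These r values rest on the 4 high libraries and are a description. Within C18-4 alone (6 libraries) the nearest were Dph6, Lmbrd1, Zfp180, Primpol and Mdp1 (each 0.998), and within TM4 alone H3f3b, Nop14, Chka, Rbpj and Nop16 (0.9997 or more).

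The 2 lines were set against each other over 6 libraries each. The transporters were not generally higher in either line: 4 had higher and 6 lower mean log2 levels in C18-4, with a median difference of -0.31 against 0.14 over all 11773 genes tested. Among those lower in C18-4 were Slc7a3 (-6.16, SE 0.32), Slc7a5 (-0.77, SE 0.29) and Slc38a2 (-0.47, SE 0.08). Over all genes, 29.2% were called lower in C18-4 and 43.9% higher at an adjusted p below 0.05 in limma. All C18-4 libraries lay on 1 side of all TM4 libraries for 2 of the 10, Slc7a3 and Slc38a2, and for 52.8% of all genes. Quantile normalization moved the median of all genes from 0.14 to -0.02 and the split at the threshold of the study from 1978 higher and 1123 lower to 1530 higher and 1506 lower. With it the differences of these 3 transporters were -6.74, -0.78 and -0.45.

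The order of the lines turned on the libraries used. In shNC libraries alone, all 10 transporters were lower in C18-4, and in shM5 libraries alone 6 were higher, among them Slc7a1 (1.21, SE 0.19), Slc1a4 (1.16, SE 0.29), Slc38a1 (0.50, SE 0.09) and Slc3a2 (0.42, SE 0.21), with a median of 0.43. Without TM4 shNC 1 and 2 and the C18-4 replicate 3 libraries, a setting chosen after the data were seen, Slc7a1 was 1.78 times higher in C18-4 and Slc38a2 1.41 times lower. Slc7a3, Slc7a5, Slc38a2 and Slc6a9 had lower mean log2 levels in C18-4 in each of these settings. Of the genes named in every comparison, Atf4 (-0.07, SE 0.11, limma adjusted p = 0.573), Ddit3 (0.42, SE 0.33, adjusted p = 0.265) and Asns (0.18, SE 0.25, adjusted p = 0.520) were not called between the lines, and Nfe2l2 was lower in C18-4 (-0.21, SE 0.04, adjusted p = 9.23e-04).

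Among the lists, 9 of 16 other amino acid transporters were called higher in C18-4 and 1 lower (Slc7a7), against 43.9% and 29.2% of all genes. With quantile normalization 7 were called higher and 4 lower, against 4209 and 4439 of all 11773 genes. Those called higher in both settings included Slc7a2, which encodes another carrier of cationic amino acids, at 1.16 to 2.85 RPKM in C18-4 and listed at 0 in TM4, the reverse of Slc7a3. Without quantile normalization, the ATF4 list had 3 of 28 genes higher (Trib3, Gdf15 and Fgf21) and 12 lower in C18-4, the eIF2alpha list 4 of 10 higher and 3 lower, the mTORC1 list 9 of 27 higher and 11 lower, and the NRF2 list 2 of 13 higher and 5 lower. The same 43.9% and 29.2% of all genes stand beside each of these counts.

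The difference between the lines in the shM5 effect (TM4 minus C18-4) was negative for all 10 transporters, from -2.62 (Slc7a3, SE 0.63) to -0.10 (Slc38a2, SE 0.16), with a median of -1.47. Over all 11773 genes, 0.102% were called in limma at an adjusted p below 0.05, and 2463 genes had an unadjusted p below 0.05. Atf4 (-0.44, SE 0.21, adjusted p = 0.258), Ddit3 (-1.52, SE 0.66, adjusted p = 0.229), Asns (-0.97, SE 0.50, adjusted p = 0.276) and Nfe2l2 (0.05, SE 0.08, adjusted p = 0.737) were not called, nor was any gene of the 5 lists. Without TM4 shNC 3 the transporters' median was -2.09, and 38.0% of all genes were called, among them Atf4 (adjusted p = 0.008), Ddit3 (adjusted p = 0.0013) and Asns (adjusted p = 0.0048).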

How the data were processed

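RNA-seq was analysed for 12 libraries in 4 groups of 3. Per the methods of the study, poly(A) RNA was sequenced on an Illumina HiSeq, reads were mapped to reference genes with SOAPaligner, and the authors deposited RPKM with 2 decimals. The genome build and annotation were not given in the sources used here. The members and all gene lists were chosen with earlier results of these data known. Genes that averaged 0.5 RPKM or more in the libraries compared were tested on log2(RPKM + 0.1) with limma 3.58.1 (R 4.3.3; eBayes with a trend, Benjamini-Hochberg adjustment over all genes). Slc7a3 did not pass this filter in C18-4. The test was checked on simulated data with noise that was independent between libraries and limited in size. That check does not cover libraries that stand apart from their group, as some did here. The study used DEGseq, which needs counts. Its threshold was applied beside an adjusted p of 0.05. Named genes were all members, Atf4, Ddit3, Asns and Nfe2l2, up to 4 genes a list by adjusted p or, where none passed, by level, and the 5 nearest patterns. Slc7a2 and the genes of single counts were named after their values were seen. Same-numbered shNC and shM5 libraries deviated together in C18-4 (r = 0.439, 0.409 and 0.631 over genes). Replicates 1 and 2 also did so across numbers (0.341 and 0.345), while replicate 3 did not (-0.514 to -0.467). The replicate number was taken as a block in C18-4 as an alternative. No deposited column was left unused.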

Additional observations from a re-analysis of the deposited data

Results flagged for a closer look

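Slc7a3 lay on opposite sides in the 2 lines: every shM5 library was above every shNC library in C18-4 and below every shNC library in TM4. The difference of the effects (TM4 minus C18-4) was -2.62 on the log2 scale (SE 0.63), and it was not tested because the gene was selected on these values. The C18-4 values were at most 0.18 RPKM.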

How the results depend on the processing

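Depth per library was not given, so the counting error of very low values, such as Slc7a3 in C18-4, could not be stated. Such values rest on few reads. In C18-4 the count at an adjusted p below 0.05 (68) was 4 with no filter, 1386 with the replicate block, 3029 without replicate 3 of both groups, and 0 to 237 with single libraries left out. Genes past the threshold of the study (0) numbered 9 with the block and 54 without replicate 3. In TM4 the counts (0 and 0) were 0 to 7433 and 0 to 896 with single libraries left out, the highest without shNC 3, and 8016 and 1021 without replicate 3 of both groups. The members' median was -1.95 to -1.01 and -1.96. TM4 numbers were not taken as pairs (r = 0.073, 0.049 and 0.127), and the block left 0 calls there. For the difference between the lines the count (12) was 27 with a pseudocount of 1, 21 with no filter, 57 with quantile normalization, 2 with the block and 0 to 4477 with single libraries left out, and at the threshold of the study 0 to 552. Between the lines the members' median was 0.43 in shM5 libraries alone. With single libraries left out, C18-4 changes ran from -0.30 to 0.16 for Asns, from -0.165 to 0.0386 for Atf4 and from -0.19 to 0.34 for Ddit3, and Asns between the lines from -0.0569 to 0.307. Asns (-0.30) and Ddit3 (-0.34) turned in shNC libraries alone, and Atf4 between the lines turned with quantile normalization (0.0067), in shM5 libraries alone (0.15) and without TM4 shNC 1 and 2 and the C18-4 replicate 3 libraries (0.0173). The causes were not tested. The settings without replicate 3 of both groups and the last were chosen after seeing the data. So was the use of the fit without TM4 shNC 3 throughout the text.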
